A study of Caenorhabditis elegans with 2 samples.

Results

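The cytosolic ribosomal protein genes of Caenorhabditis elegans were examined for peaks of the tagged protein C04F5.9. They were taken as the protein-coding genes of the Ensembl annotation whose symbols start with rpl- or rps-, together with rla-0, rla-1 and rla-2, which gave 81 of 19973 protein-coding genes. By symbol alone, 50 were assigned to the large (60S) subunit and 31 to the small (40S) subunit. The rule used names only and no measured value.

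The data were chromatin immunoprecipitation sequencing (ChIP-seq) peak lists from 2 biological replicates of a single group, with no second condition. Strain OP525 carries the unc-119(tm4063) III allele and the integrated array wgIs525, from which C04F5.9 is expressed with GFP and FLAG fused to its C-terminus. Both replicates were whole hermaphrodite L1 larvae, bleached, held without food and harvested 6 hours after synchronisation. Sonicated chromatin was precipitated with an antibody against GFP, so every value refers to the transgene product in a mixture of all larval cell types. The optimal list held 1205 peaks that passed the authors' reproducibility threshold. The combined list held 30000 regions, the replicate 1 list 30000 and the replicate 2 list 28005, most of them weak. Within each list regions were ranked by the deposited signal, with rank 1 the highest, because signal cannot be compared between lists. The number of reads behind the lists is unknown.

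A ribosome needs its proteins in matched amounts, and in growing animals their mRNAs are among the most abundant in the cell. Larvae that hatch without food arrest at L1 and resume growth when fed. In C. elegans many mRNAs are trans-spliced: the first stretch of the primary transcript is removed at a splice acceptor, which ends in AG, and a short spliced leader is joined in its place. For such genes the 5′ end seen in mRNA is that acceptor, and transcription begins upstream of it. Many neighbouring genes on the same strand are also transcribed together as operons, from a promoter before the first gene.

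A member was said to have a peak when an optimal summit lay within 500 bp of one of its annotated transcript 5′ ends. Positions are signed along the gene, so that negative values are upstream. The summit sequences of 9 members are shown first because they carry the letters that recur at these genes. Each runs 5′ to 3′ along the member's strand and spans 50 bp on each side of the summit, from the RefSeq ce11 (WBcel235) genome. Capitals mark, on either strand, the words GCGAGACC, AAACGAGT and AAAGGCGC, the longer patterns GGTCTCGCNNCGA and AAACGAGTGTNACCGTA, and the words AAACACGCT, CATACACTC and CGCTCCACA. Their frequencies are given further on. The windows were at chrIII:3867520-3867620 on the plus strand for rpl-3, chrIII:7854628-7854728 plus for rpl-35, chrIV:654873-654973 minus for rpl-15, chrIII:7208050-7208150 plus for rpl-6 and chrIII:8130505-8130605 minus for rpl-21. The others were at chrII:5055328-5055428 plus for rpl-22, chrIV:4750042-4750142 minus for rpl-20, chrIV:11602258-11602358 plus for rps-11 and chrIII:7189872-7189972 minus for rps-21. None of the windows overlaps an annotated exon.
rpl-3: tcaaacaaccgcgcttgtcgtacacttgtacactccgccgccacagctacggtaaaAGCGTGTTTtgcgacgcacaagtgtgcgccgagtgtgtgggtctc
rpl-35: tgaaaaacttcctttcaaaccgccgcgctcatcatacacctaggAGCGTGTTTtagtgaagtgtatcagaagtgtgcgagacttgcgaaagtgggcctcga
rpl-15: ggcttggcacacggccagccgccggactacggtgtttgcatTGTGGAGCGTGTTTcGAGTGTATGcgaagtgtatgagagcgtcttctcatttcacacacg
rpl-6: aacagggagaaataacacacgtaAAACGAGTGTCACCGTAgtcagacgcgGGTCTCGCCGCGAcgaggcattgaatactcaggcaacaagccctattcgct
rpl-21: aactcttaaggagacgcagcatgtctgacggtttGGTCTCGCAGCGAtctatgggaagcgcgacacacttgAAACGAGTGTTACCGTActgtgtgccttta
rpl-22: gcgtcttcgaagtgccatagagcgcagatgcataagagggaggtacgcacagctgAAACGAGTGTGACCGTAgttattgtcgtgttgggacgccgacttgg
rpl-20: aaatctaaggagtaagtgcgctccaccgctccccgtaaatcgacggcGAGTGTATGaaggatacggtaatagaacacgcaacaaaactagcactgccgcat
rps-11: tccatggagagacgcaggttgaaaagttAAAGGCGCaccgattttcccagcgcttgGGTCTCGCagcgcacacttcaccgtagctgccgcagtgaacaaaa
rps-21: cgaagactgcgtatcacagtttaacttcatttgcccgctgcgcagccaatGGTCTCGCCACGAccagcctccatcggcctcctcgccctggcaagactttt

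Most ribosomal protein genes had a peak, and all of their summits lay upstream of the gene. An optimal summit fell within 500 bp of 47 of 81 members, 58% (exact 95% binomial interval 46.5 to 68.9%), beside 5.51% of all protein-coding genes. With a window of 250 bp the count was 11 members (13.6%, beside 3.71% of all genes), and with 1000 bp it was 52 (64.2%, beside 6.89%). The steep change between 250 and 500 bp reflects where the summits were: most lay between 200 and 400 bp upstream. Intervals here and below cover counting error over genes only and treat genes as independent.

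Both replicates gave nearly the same members. Among the 1205 regions with the highest signal in each replicate list, a summit lay within 500 bp of 46 members in replicate 1 (56.8%, beside 5.33% of all genes) and of 48 in replicate 2 (59.3%, beside 5.51%). In both lists at once there were 44 members, and all 44 were also in the optimal list. Replicate 1 alone added rpl-30 and rps-13. Replicate 2 alone added rpl-1, rpl-9, rpl-17 and rpl-18, of which only rpl-9 was in the optimal list. The remaining 31 members were in neither.

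The large and small subunits did not differ beyond the counting interval. A peak was present at 28 of 50 large subunit genes, 56% (41.3 to 70.0%), and at 19 of 31 small subunit genes, 61.3% (42.2 to 78.2%). The large subunit share was lower by 5.29 percentage points (−5.29, Newcombe 95% interval −25.6 to 16.4). In replicate 1 the shares were 54.0% and 61.3%, and in replicate 2 they were 60.0% and 58.1%, so the replicates gave opposite signs. Small subunit peaks had a median rank of 265 and large subunit peaks 386.5, but the 95% intervals of those medians, 84 to 596 and 248 to 634, overlapped widely. Median positions were −315.5 bp for the large subunit (interval −351 to −263) and −280 bp for the small subunit (interval −333 to −252). These overlapped as well.

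The members had higher-ranking peaks than other target genes on median, although none was among the 10 highest. The 47 members had ranks from 11 to 1050 with a median of 327 (interval 234 to 498). The other 1054 target genes, those that are not members but have an optimal summit within 500 bp, had a median rank of 559.5. No member was among the 10 highest peaks, 9 of 47 (19.1%) were among the first 50, beside 4.55% of the other targets, and 33 (70.2%) were among the first 602, beside 54.7%. The 47 members were served by 45 distinct peaks, since 2 peaks each lay between a pair of members. Those peaks were 102 to 435 bp wide with a median of 384 bp, and their deposited signal ran from 79.1 to 2557 with a median of 161, beside 115 over all optimal peaks. The 30 bases around every member summit occurred once in the genome.

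The strongest member peak belonged to rps-19, which encodes a protein of the small subunit head. Its summit at chrI:9626069 lay at −273 bp in the optimal list, −280 bp in replicate 1 and −282 bp in replicate 2, and it ranked 11 in all 3 lists with an optimal signal of 2557. Next came rps-0, whose product sits where mRNA leaves the small subunit, at −313 bp and ranks 14, 15 and 14 in the optimal, replicate 1 and replicate 2 lists. Both genes ranked within 1 place across the lists.

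Large subunit genes followed. For rpl-3, which encodes a protein reaching towards the peptidyl transferase centre, the summit lay at −284 bp with ranks 21, 20 and 20 in the same order of lists. The summit of rpl-35, which encodes a protein at the rim of the exit tunnel, was the most distant of all members, at −456 bp in the optimal list, −456 bp in replicate 1 and −454 bp in replicate 2, with ranks 22, 22 and 23. The rpl-15 summit was at −347 bp (ranks 25, 25 and 28). That of rpl-24.2 was at −134 bp (ranks 34, 34 and 38) and lay inside the body of C03D6.1, an opposite-strand gene that overlaps rpl-24.2. These positions differed between the replicates by no more than 14 bp.

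The remaining members among the first 50 were rpl-20, rps-1 and rpl-12. The rpl-20 summit was at −314 bp (ranks 36, 36 and 34) and that of rps-1, which encodes another mRNA exit protein, at −264 bp (ranks 41, 40 and 40). That of rpl-12, the base protein of the P stalk where elongation factors dock, was the closest to its gene of all members, at −47 bp in the optimal list, −48 bp in replicate 1 and −47 bp in replicate 2 (ranks 44, 45 and 48). A further group completed the first 15. It comprised rps-12 at −161 bp (rank 58), rps-20 at −252 bp (84), rps-23 at −290 bp (109), rpl-7A at −77 bp (121), rps-28 at −420 bp (126) and rps-15 at −397 bp (139). Among them rps-23 encodes the protein of the decoding centre. Ranks of these 6 moved more between replicates: rps-20 ranked 111 in replicate 1 and 51 in replicate 2, and rps-28 ranked 166 and 74.

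**Figure D1:**
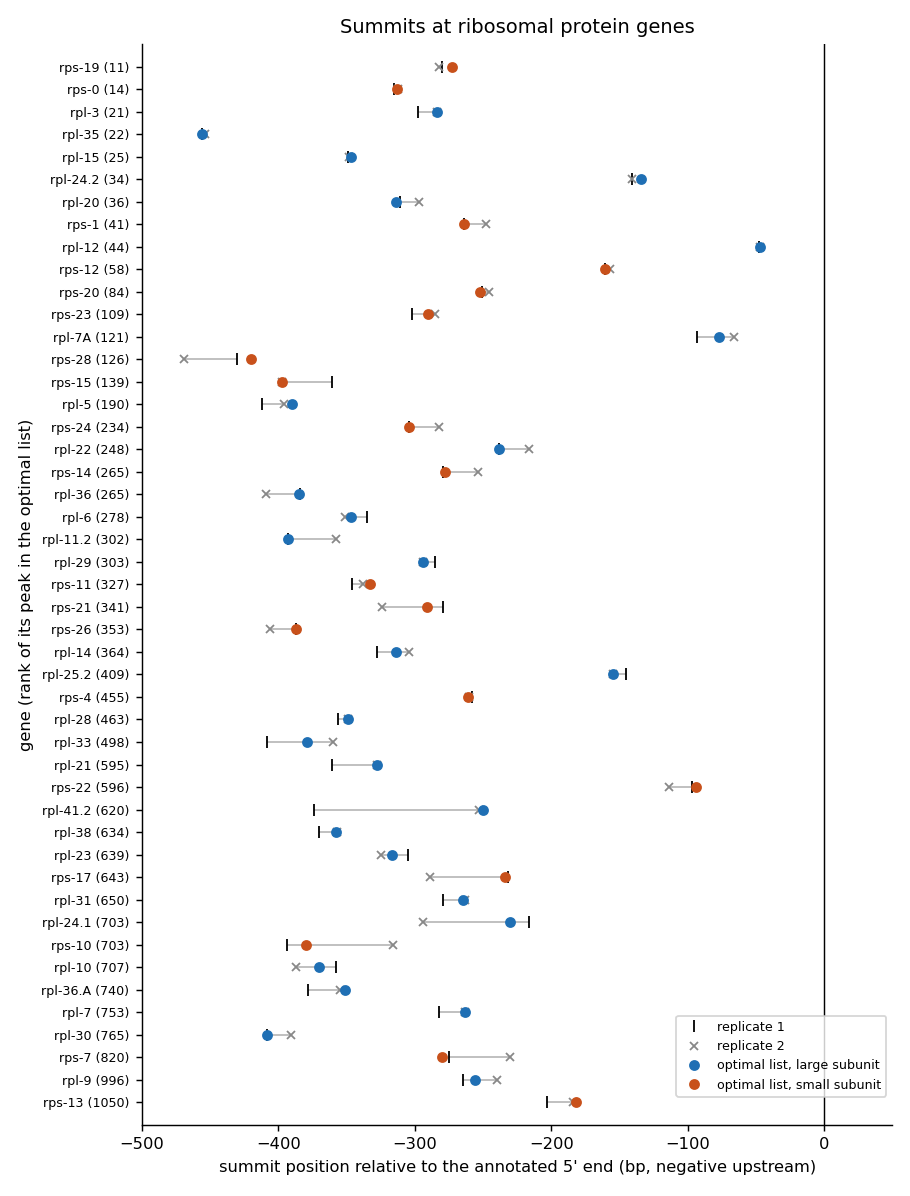
Summit position at each of the 47 ribosomal protein genes with a peak, in bp from the annotated 5′ end (negative upstream), ordered by rank in the optimal list (in brackets). Circles are optimal summits (blue large subunit, orange small subunit), bars and crosses are the best-ranked regions of replicates 1 and 2, and every symbol lies upstream, most of them between −400 and −200 bp.

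Summit positions were close between the replicates and ranks less so. For each of the 47 members the best-ranked region within 500 bp was taken in each replicate list. The summits differed by a median of 19 bp (quartiles 9.5 and 28, largest 121 at rpl-41.2) and lay within 50 bp of each other for 43 of 47. Their median position was −304 bp in replicate 1 and −294 bp in replicate 2. The larger rank divided by the smaller had a median of 1.37, and 34 of 47 were within a factor of 2. The largest ratio was 4.43, at rpl-30, which ranked 514 in replicate 1 and 2279 in replicate 2. Replicate 1 gave the better rank for 20 members and replicate 2 for 24, with 3 equal. The nearest region was a weaker one than the best-ranked region for 17 members in replicate 1, 6 in replicate 2 and 13 in the combined list, so the nearest region was not used for ranks.

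**Figure D2:**
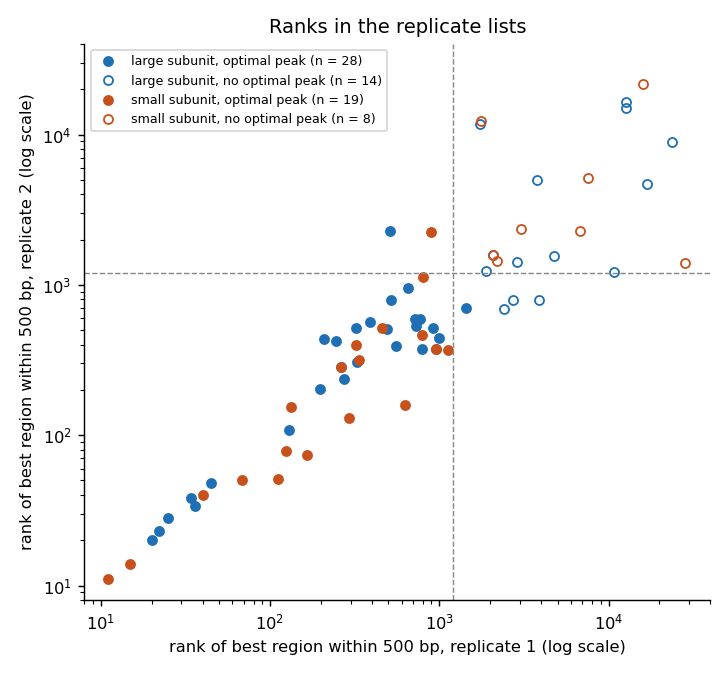
Rank of the best region within 500 bp of each ribosomal protein gene in replicate 1 (x) and replicate 2 (y), both on log scales, for genes with a region in both lists. Filled circles have an optimal peak and open circles do not, and the dashed lines mark rank 1205. All but 3 of the 47 filled circles lie below both lines.

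The summits at ribosomal protein genes lay further upstream than those at other targets. Their median position was −294 bp (interval −333 to −265, quartiles −354.5 and −254, range −456 to −47), beside −169 bp (quartiles −267.75 and −89) for the other targets. All 47 were upstream, beside 971 of 1054 other targets. A summit more than 200 bp upstream was found for 40 members (85.1%) and 427 other targets (40.5%). In bins of 100 bp, 20 members (42.6%) lay between −400 and −300 bp and 17 (36.2%) between −300 and −200 bp. Other targets were most frequent between −200 and −100 bp (32.4%), where 4 members (8.51%) lay. For 15 of 70 mitochondrial ribosomal protein genes with a peak, the median was −154 bp.

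**Figure D3:**
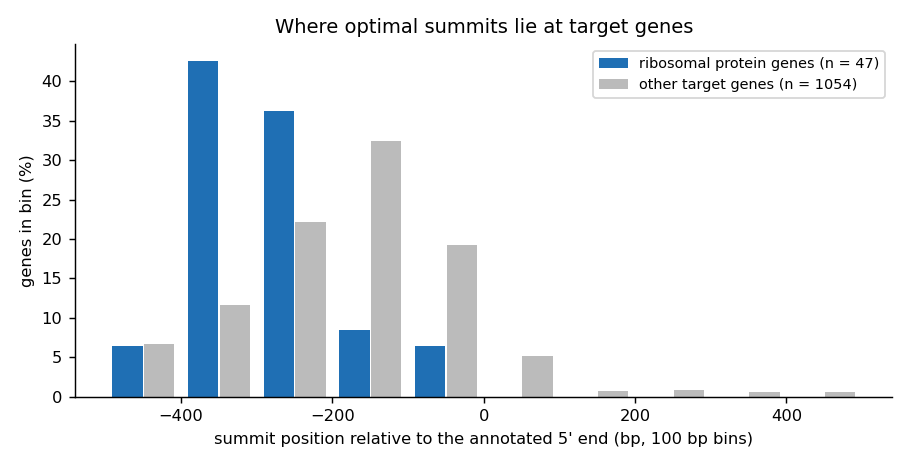
Share of genes (%) by position of the optimal summit from the annotated 5′ end, in bins of 100 bp, for 47 ribosomal protein genes (blue) and 1054 other target genes (grey). The blue bars are tallest at −400 to −300 bp (42.6%) and the grey at −200 to −100 bp (32.4%).

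The same offset was present when the start codon was the reference point. The median was then −318 bp for members and −220 bp for other targets. The annotated 5′ end lay a median of 8 bp before the start codon at members (quartiles 5 and 19) and 12 bp (0 and 52) at other genes. The combined list, made without the reproducibility threshold, holds the optimal peaks as its 1205 highest regions. Its profile is therefore not a separate observation of the upstream position. In bins of 50 bp over all 81 members, 18.5% had a combined-list summit between −400 and −350 bp and again between −300 and −250 bp. Over the other protein-coding genes the highest bin was −200 to −150 bp, with 3.83%.

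**Figure D4:**
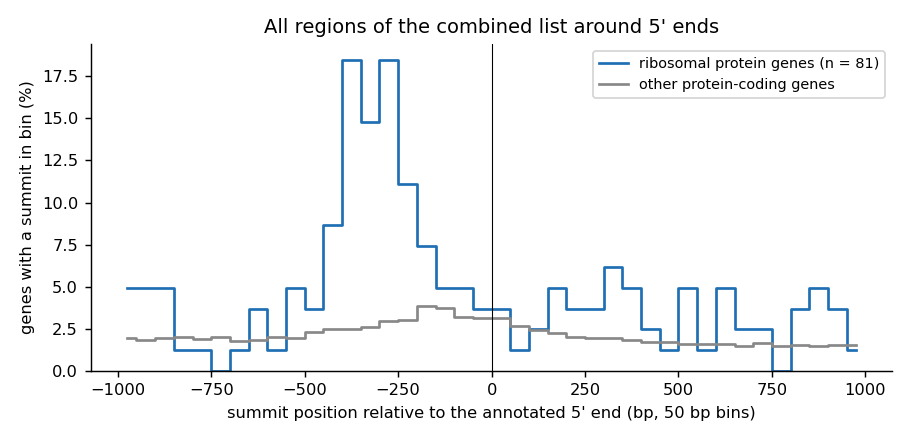
Share of genes (%) with at least 1 combined-list summit in each 50 bp bin around the annotated 5′ end, for the 81 ribosomal protein genes (blue) and all other protein-coding genes (grey). The blue line reaches 18.5% between −400 and −250 bp, while the grey line stays at or below 3.83%. The optimal peaks are part of the combined list.

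Most members began directly after an AG in the genome, the letters of a splice acceptor. The pair AG stood immediately before the annotated 5′ end nearest to the summit at 66 of 81 members, 81.5% (71.3 to 89.2%), beside 28.2% of all protein-coding genes and 45.5% of the other targets. The longer string TTTCAG stood there at 38 members (46.9%), beside 12.6% of all genes and 22.5% of other targets. For the large subunit the AG share was 78.0%, and for the small subunit 87.1%. It was 42 of 47 (89.4%) at members with a peak and 24 of 34 (70.6%) at members without. For members without a peak the nearest summit can be far away, so its choice among several ends is arbitrary. At the outermost annotated end the counts were 42 of 47 and 27 of 34 (79.4%). Only AG directly before the annotated end was counted. Among members without a peak, the bases aggtaat directly follow the end of rpl-26, and tttcag lies within the 20 bases before that of rpl-43. Among members with a peak, rps-22 and rps-24 also have such letters near the end. The difference between the groups thus depends on the annotated ends, and it was not tested. The 30 bases around the annotated end of 6 members show the pattern, with 20 bases before the end and 10 after it, on the gene's strand. Capitals mark AG or TTTCAG. They were at chrIII:3867834-3867863 for rpl-3, chrIII:7855114-7855143 for rpl-35, chrIV:654567-654596 for rpl-15, chrIII:4475898-4475927 for rps-1, chrIV:13240642-13240671 for rpl-12 and chrIV:4390581-4390610 for rpl-7A.
rpl-3: gtaaaattaatattTTTCAGggtacaacaa
rpl-35: taagcaatctcattattcAGggttaccaca
rpl-15: tctaaccttttttcTTTCAGaaaacatggg
rps-1: ttatgtattcctatTTTCAGacacagcttg
rpl-12: agcgacgcaacaaccattgtgatacggagt
rpl-7A: taaaaatcgtcgctcattttacttttgggc

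Median summit position was further upstream with these letters than without, but at members this rests on 5 genes that lack them. Members with AG had a median position of −303.5 bp (n = 42), and the 5 without it −94 bp, with an interval of −358 to −47 bp that contains the first median. Of these 5, rpl-12 (−47 bp), rpl-7A (−77 bp) and rps-22 (−94 bp) had the closest summits of all members. The others, rpl-38 (−358 bp) and rps-24 (−304 bp), lay as far upstream as members with AG. At rps-24 the bases tttgcag, which end in AG, directly follow the annotated end, so it lacks AG only before that end. Among other targets the medians were −218 bp with AG (n = 480, interval −232 to −200) and −124 bp without (n = 574, interval −137 to −107). The part of the AG in the more distant position of member summits was not tested. Among targets with AG, the median was −303.5 bp for members and −218 bp for other targets, a difference that was not tested either.

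By place in the ribosome, the groups were too small to show a difference. On the mRNA exit side of the small subunit 5 of 6 genes had a peak, namely rps-0, rps-1, rps-14, rps-26 and rps-28, and rps-5 had none. At the mRNA entry 0 of 3 did (rps-2, rps-3 and rps-30). In the small subunit head the count was 6 of 10, with rps-10, rps-12, rps-15, rps-17, rps-19 and rps-20. Around the polypeptide exit tunnel it was 4 of 9, with rpl-22, rpl-25.2, rpl-31 and rpl-35. Of the 4 P stalk genes only rpl-12 had a peak, and rla-0, rla-1 and rla-2 had none. The 5S particle, which anchors the 5S RNA, had 2 of 3 (rpl-5 and rpl-11.2), the surroundings of the peptidyl transferase centre 2 of 4 (rpl-3 and rpl-10), and the L1 stalk gene rpl-1 had none. With 1 to 10 genes each, these groups cannot be ordered beyond counting error.

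In each of 3 pairs of close paralogs, a single copy had a peak. Over all members 58% had a peak, and 3 pairs are too few to show a pattern. For rpl-11, the copy rpl-11.2 on chromosome X had a peak at −393 bp (rank 302), while rpl-11.1 on chromosome V had no combined-list region within 500 bp. For rpl-25, rpl-25.2 had a peak at −155 bp (rank 409) and rpl-25.1 had its nearest optimal summit at −3079 bp. For rpl-41, rpl-41.2 had a peak at −250 bp (rank 620), and the same summit was the nearest to rpl-41.1, downstream of that gene's 5′ end at +852 bp. Reads from the near-identical parts of such copies could be split between them, although the summit sequences themselves were unique. Both genes had a peak in other pairs that were taken by like symbol only. These were rpl-24.1 at −230 bp (rank 703) and rpl-24.2 at −134 bp (rank 34), rpl-7 at −263 bp (rank 753) and rpl-7A at −77 bp (rank 121), and rpl-36 at −385 bp (rank 265) and rpl-36.A at −351 bp (rank 740). Their sequences were not compared, and they are not taken as copies of a single gene.

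More than a single gene lay beside most member peaks. A peak was called shared when its summit was also within 500 bp of a 5′ end of another protein-coding gene. This was so for 27 of 47 members, 57.4% (42.2 to 71.7%), and 20 had their own. Noncoding genes were not counted as sharing a peak. The summit of 5 member peaks lay inside an annotated noncoding gene, among them the own peak of rps-1. The share was 57.1% in the large subunit (16 of 28) and 57.9% in the small (11 of 19), and 53.6% among other targets. Shared and own peaks had median positions of −313 and −292.5 bp and median ranks of 265 and 334. The intervals of the medians overlapped for position (−370 to −252 and −333 to −263) and for rank (109 to 650 and 234 to 620).

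The 27 members with a shared peak were served by 25 peaks, and each stood divergent to the gene it shared with. At rpl-30 the summit lay inside the partner pab-1, 30 bp downstream of its 5′ end, and not between the genes. Members faced each other at 2 peaks, rpl-36 with rps-14 (rank 265, at −385 and −278 bp) and rpl-24.1 with rps-10 (rank 703, at −230 and −380 bp). At the other 23 pairs the summit was nearer to the partner in 16 and nearer to the member in 7. The partners had a median position of −172 bp, beside −294 bp for all members with a peak, and AG before the 5′ end in 8 of 23 (34.8%). For instance the rps-0 summit was 313 bp upstream of rps-0 (−313) and 60 bp upstream of rbg-3 (−60). The rpl-10 summit was at −370 bp of rpl-10 and −33 bp of ints-11, which encodes the nuclease of the Integrator complex. The opposite held at rpl-12, with −47 bp from rpl-12 and −346 bp from lin-54, the DNA-binding subunit of the DRM complex. Other partners included lpd-7 (with rpl-9, rank 996) and the mitochondrial ribosomal protein gene mrpl-49 (with rpl-28, rank 463). Further ones were nuo-1, a subunit of respiratory complex I (with rpl-36.A, rank 740), col-38 (with rpl-5, rank 190) and dpm-3 (with rps-23, rank 109). The partners were not compared by function. A summit near both of 2 divergent genes cannot be assigned to either by position. With only the gene nearest to each summit counted, 29 members kept a peak.

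Members had a peak at similar shares beside divergent and distant same-strand neighbours. A divergent upstream neighbour was present at 55 of 81 members (67.9%, beside 46.2% of all genes), at a median gap of 558 bp, beside 1174.5 bp. Of the 55, 34 (61.8%) had a peak, beside 8.85% of all genes so arranged. Overlapping genes on the other strand were counted as divergent too, as at rpl-24.2 with C03D6.1 and rpl-37 with pitp-1. Of 17 members with a neighbour on the same strand at least 500 bp upstream, 11 (64.7%) had a peak, beside 2.10% of all such genes. Divergent and same-strand members with a peak had similar medians, −297 bp (n = 34) and −294 bp (n = 13). Of 9 members with a same-strand neighbour closer than 500 bp, 2 had a peak, rps-7 and rps-17, with gaps of 478 and 480 bp, beside 3.53% of all such genes. So few members do not place this group below the others, and over all genes it was not the lowest.

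At 4 of the 7 others the gene just upstream had the peak instead. These were rps-16 behind fib-1 (gap 109 bp, fib-1 summit at −70 bp), rpl-16 behind lias-1 (105 bp, −242 bp), rla-1 behind Y37E3.8 (105 bp, −321 bp) and rpl-25.1 behind glit-1 (97 bp, −180 bp). Their share, 57.1%, stood beside 405 of 3957 (10.2%) for all genes without a peak and with such a neighbour. With gaps of 90 to 120 bp, it was 4 of 5 members beside 150 of 804 of all such genes (18.7%). That range closely fits the gaps of those 5 members, 97 to 119 bp. It leaves out rpl-19 and rps-2, with gaps of 364 and 356 bp and no peak at the gene upstream. The share in this range is therefore a description only. The product of fib-1 is fibrillarin, which methylates ribosomal RNA. For rpl-27, rpl-19 and rps-2, neither the member nor the gene upstream had a peak. Whether these pairs are co-transcribed was not tested.

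The window limit left few members close to it. Just inside were rpl-35 (−456 bp), rps-28 (−420 bp) and rpl-30 (−408 bp). Just outside were rps-29 (−532 bp, rank 597), rps-18 (−539 bp, rank 456) and rpl-27, whose nearest optimal summit was downstream at +720 bp (rank 177). The summit nearest to rpl-43 was at −751 bp (rank 242).

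Of the 34 members without a peak, most had a weaker region. In the combined list a region of any rank lay within 500 bp of 75 of 81 members (92.6%, beside 37.8% of all genes), 44 of 50 large subunit and 31 of 31 small subunit genes. Among the 34, 28 had such a region, with ranks from 1347 to 27513 and a median of 3278.5, and for 11 it was within rank 2410, which is 2 times the length of the optimal list. Closest to the threshold were rpl-1 (rank 1347, −220 bp), rpl-18 (1372, −180 bp), the divergent pair rpl-39 and rps-30 (1374, −292 and −207 bp), rpl-19 (1389, −238 bp), rps-6 (1624, −321 bp) and rpl-13 (1722, −250 bp). These positions were in the range of the members with a peak. The 6 with no combined region within 500 bp were rla-2, rpl-11.1, rpl-16, rpl-37, rpl-42 and rpl-43. For rla-2 the nearest was just outside, at −527 bp (rank 1814), and for rpl-42 there was none within 1000 bp, the nearest being at +2313 bp.

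Peaks were spread over all 6 chromosomes. A peak was present at 14 of 18 members on chromosome III (77.8%), 15 of 25 on I, 10 of 18 on IV, 5 of 10 on II, 2 of 8 on V and 1 of 2 on X. Chromosome III was also the richest over all protein-coding genes (9.96% with a peak) and V and X the poorest (2.80 and 2.16%).

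The DNA under member summits was rich in G and C within poor surroundings. The 101 bp around the summit had a GC content of 49.3% ± 5.04 (SD, n = 45 peaks) and the flanks 200 to 250 bp away 31.4% ± 6.55. The summit was the richer in 43 of 45. Other optimal peaks had 46.5% ± 8.20 at the summit (n = 1160) and 35.7% in the flanks, and the summit was richer in 969.

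Words that led the other peaks were in few member peaks, but no single word was shown to be rarer there. Words of 8 bases, both strands counted together, were ranked by excess of summit windows over flanks in the 1160 peaks that belong to no member, passing over words that overlap a chosen word by 6 or more bases. The first, AGACGCAG, was in 9.57% of those peaks, in 0.906% of windows of the same length centred 294 bp upstream of all genes, and in 2 of 45 member peaks (4.44%), those of rpl-21 and rps-11. The next, GCAAACAC, was in 7.07% of other peaks and in 2 member peaks, those of rpl-15 and rps-17. The following words AAACGCGC, GCGCCAGC and CGAGAGGA were in 0, 1 and 0 member peaks, the 1 being rpl-24.2. Of other peaks, 6.81, 5.52 and 5.26% held them, in the same order. The exact binomial interval of the member share was 0.543 to 15.1% for AGACGCAG and for GCAAACAC. It was 0 to 7.87% for AAACGCGC and for CGAGAGGA, and 0.0562 to 11.8% for GCGCCAGC. Each interval contained the share of that word in other peaks. Any of the 5 was in 5 of 45 member peaks, 30.1% of other peaks and 2.33% of upstream windows. These words were chosen for their excess in the other peaks, so their shares there are descriptions and are raised by that choice. The difference between member and other peaks was not tested.

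Member peaks shared other words, those capitalised in the summit sequences above. They were found from the member peaks themselves, so their shares there are descriptions. GCGAGACC was in 11 of 45 member peaks (24.4%) and 3.97% of other peaks, AAACGAGT in 10 (22.2%) and 1.21%, and AAAGGCGC in 9 (20%) and 1.64%. Any of the 3 was in 23 (51.1%) and 6.03%. By rank they were uneven: 1 of 9 members among the first 50 peaks had any of them, rpl-24.2, and 23 of 38 beyond rank 50 did. They were in 15 of 28 large subunit and 9 of 19 small subunit members with a peak.

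Any of the words was about as frequent upstream of members with and without a peak, but single words differed. Any of the 3 lay in the 500 bp upstream of the gene at 19 of 34 members without a peak (55.9%), which had no part in choosing the words, and at 24 of 47 with a peak (51.1%). The share was 14.4% over other targets and 7.26% over all genes. AAACGAGT was less frequent without a peak, upstream of 4 of 34 (11.8%) beside 12 of 47 with a peak (25.5%). GCGAGACC was upstream of 12 of the 34 (35.3%) beside 11 of 47 (23.4%), among them rpl-2, rpl-4, rpl-13, rpl-39 and rps-30, and AAAGGCGC upstream of 10 (29.4%) beside 9 (19.1%), among them rla-0, rps-2 and rps-3. None of these differences was tested. The 500 bp upstream of divergent neighbours overlap, so a word can count for both genes.

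**Figure D5:**
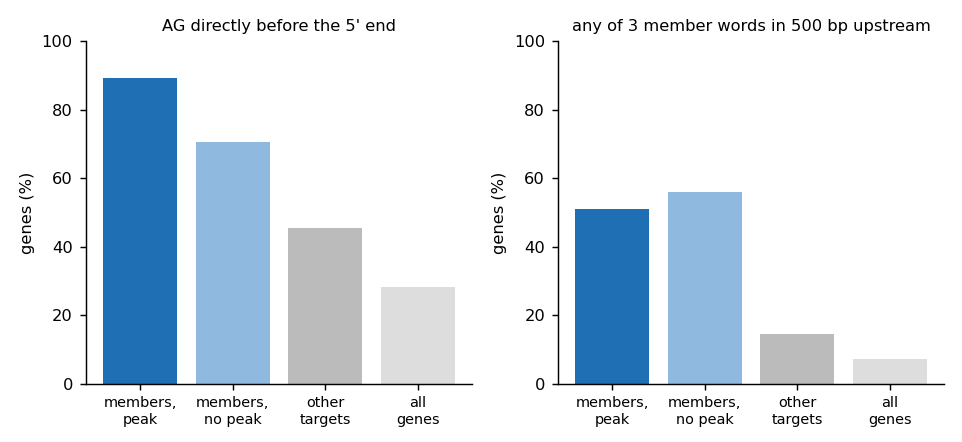
Share of genes (%) with AG directly before the annotated 5′ end (left) and with any of the 3 words led by member peaks in the 500 bp upstream (right), for members with a peak (n = 47), members without (n = 34), other targets (n = 1054) and all protein-coding genes (n = 19973). Both member bars stand above both grey bars in each panel, and in the right panel they are nearly equal (51.1 and 55.9%). The left panel uses the 5′ end nearest to an optimal summit and counts AG only where it directly precedes that end.

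Both words led by member peaks with the most occurrences extended into longer patterns. A neighbouring base was kept where at least 80% of the occurrences at member summits shared it, within 10 bases of the word, and written N otherwise. These patterns too were chosen after the sequences had been seen. GCGAGACC, read on the other strand, extended to GGTCTCGCNNCGA, which was in 9 of 45 member peaks, 3.36% of other peaks and 0.421% of upstream windows of all genes. It also lay upstream of 9 of 34 members without a peak (26.5%), beside 1.49% of all genes. AAACGAGT extended to AAACGAGTGTNACCGTA, which was in 6 member peaks (13.3%) and 3 of 1160 other peaks (0.259%). It lay in the 500 bp upstream of 36 of 19973 genes, which included 9 members with a peak and 2 without, rpl-34 and rps-29. AAAGGCGC did not extend. The sequences of rpl-6 and rpl-21 hold both patterns, in opposite order along the gene.

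The strongest member peaks shared other letters. The longest words in at least 3 of the 9 member peaks to rank 50 had 9 bases. AAACACGCT was in the windows of rpl-3, rpl-15 and rpl-35, where it reads AGCGTGTTT along the gene, CATACACTC in those of rpl-15, rpl-20 and rps-1, and CGCTCCACA in those of rpl-12, rpl-15 and rps-1. No other member peak held any of them. AAACACGCT was in 9 of 1160 other peaks (0.776%), CATACACTC in 1 and CGCTCCACA in 2. In the rpl-15 window all 3 stand within a single stretch. A match of letters is not evidence of a binding site, and none of these strings was tied to a factor here.

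Genes with related functions are given for comparison. Of the ribosomal proteins with other symbols, ubl-1 (−217 bp, rank 1017) and ubq-2 (−479 bp, rank 507), which encode ubiquitin-like and ubiquitin fusions to ribosomal proteins, had a peak, and rack-1 had none. Of 10 elongation and termination factor genes found in the annotation, 6 had a peak. The eEF1A genes eef-1A.1 and eef-1A.2 had theirs at −385 bp (rank 19) and −361 bp (rank 381), in the range of the members. Those of eef-2 (−20 bp, rank 136), iff-2 (−60 bp, rank 33), eef-1G (−21 bp, rank 569) and eef-1B.1 (+17 bp, rank 374) lay close to the gene. Among 37 ribosome biogenesis genes 9 had a peak (24.3%), including fib-1 (rank 119), rbd-1 (−152 bp, rank 218), nol-56 (−256 bp, rank 315) and nol-58 (−306 bp, rank 505). Of 10 RNA polymerase I and III subunit genes none did. The polymerase list held 20 symbols and the biogenesis list 45, and those not matched in the annotation were not analysed here. Of the mitochondrial ribosomal protein genes 15 of 70 did (21.4%), beside the 5.51% of all genes.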

How the data were processed

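The 2 biological replicates of anti-GFP ChIP-seq on strain OP525 formed 1 group. The authors' ce11 lists were used: 1 list per replicate, a combined list and an optimal list cut by irreproducible discovery rate (IDR). Per the companion text the regions were called against a control alignment. For aligner, caller, versions and IDR cutoff: not given in the sources used here. The deposited signal ranked regions within a list. The deposited −log10 q value was 2.93 in every optimal peak and was not used to rank. Summit positions came from the deposited summit offset. Control alignments, ce10 lists and coverage tracks were not analysed here. Read depth is unknown.

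Summits were assigned to genes of the Ensembl release 115 annotation by distance to any transcript 5′ end (500 bp). Shares have exact (Clopper-Pearson) 95% binomial intervals, medians order-statistic intervals, and the subunit difference a Newcombe interval. No hypothesis test was run, since there was 1 group and the members, role groups, lists and alternatives were chosen with earlier results of these data known. The longer sequence patterns and 9-base words were added after the sequences had been seen. Any member could be named. Full values were given for the 15 best-ranked, for paralogs and pairs with like symbols, for those nearest the window limit and for those without regions. The assignment of summits to genes was tested on simulated data. Python 3.11.15, numpy 2.4.6, pandas 2.3.3, scipy 1.17.1 and matplotlib 3.10.9 were used.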

Additional observations from a re-analysis of the deposited data

How the results depend on the processing

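Of 47 alternative values, 39 stayed within 1.5 times the reported count or within the 95% interval of the reported share, median or difference, and 8 moved beyond. The interval of the subunit difference is wide and includes both signs. With a 250 bp window there were 11 members with a peak, a median position of −161 bp and 5 members with a shared peak, a narrower window keeping only the nearest summits. With only the nearest gene of each summit counted there were 29 members and, by construction, 0 with a shared peak. With every region of the combined list there were 75 members, a median position of −207 bp and a median rank of 1389. Leaving out replicate 1 or 2 gave 46 to 48 members, median positions of −304.5 to −294 bp, median ranks of 323 to 370.5, 26 to 27 members with a shared peak and a large minus small difference of −7.29 to 1.94 points. That difference was also positive with the 250 bp window (1.10) and the nearest gene only (0.516), and −12.4 with the 602 highest peaks. No paired analysis was possible because there was 1 group. Doubling or halving the top regions gave 55 and 32 members in replicate 1 and 60 and 41 in replicate 2. Depth is unknown, so whether weaker regions reflect depth was not tested.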
